A study of Homo sapiens with 12 samples.

Results

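The E2F transcription factor family is described here by the 8 genes whose symbols are E2F1 to E2F8. They were chosen by name alone, all 8 were found, and they are 8 of the 4918 genes in the table of expression values. The cells were A375, an established human melanoma cell line, grown in culture and treated for 24 h before RNA was taken. The control group was labelled as having no treatment, and the other groups received SB-3CT, interferon gamma (IFNγ) or SB-3CT with IFNγ, with 3 samples in each of the 4 groups; the protocol in the labels also names a vehicle, and the doses used for these samples are not given in the sources used here. SB-3CT is a small-molecule inhibitor of the gelatinases MMP2 and MMP9, and IFNγ is a cytokine that raises PD-L1 on tumor cells, so the study asked which genes SB-3CT altered in A375 cells with and without IFNγ. All 4 groups came from the same cell line, so the results speak for a single tumor's cells in culture.

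E2F proteins bind short GC-rich DNA words near the start sites of genes for DNA replication and cell division. E2F1, E2F2 and E2F3 are called activators: the retinoblastoma protein holds them in check until cyclin-dependent kinases release them, a control that melanomas often lose through CDKN2A. E2F4 and E2F5 carry the pocket proteins RBL1 and RBL2 to promoters and act mainly as repressors, E2F6 represses with Polycomb group proteins and needs no pocket protein, and E2F7 and E2F8, the atypical members, bind DNA without a DP partner and repress targets of the activators, the E2F1 gene among them.

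Several E2F genes carry E2F words in their own promoters, which is why these sequences are shown beside their expression. RefSeq (GRCh38.p14) gave a promoter window of 250 bases before to 50 after the start for 6 of the 8 members, with 2 windows for E2F3. The words searched on both strands were TTTCCCGC, TTTCGCGC, TTTGCCGC and TTTGGCGC, and the same words ending in G (TTTCCCGG, TTTCGCGG, TTTGCCGG, TTTGGCGG). The 120 bases before the start are printed 5′ to 3′ on the gene's strand, with these words in capitals. The windows are E2F1 (chr20:33686386-33686505, minus strand), E2F2 (chr1:23531234-23531353, minus strand), E2F3 (chr6:20401759-20401878, plus strand), E2F6 (chr2:11466162-11466281, minus strand) and E2F7 (chr12:77065570-77065689, minus strand).
E2F1: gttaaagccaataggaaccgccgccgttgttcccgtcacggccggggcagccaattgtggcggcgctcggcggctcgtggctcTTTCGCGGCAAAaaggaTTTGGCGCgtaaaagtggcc
E2F2: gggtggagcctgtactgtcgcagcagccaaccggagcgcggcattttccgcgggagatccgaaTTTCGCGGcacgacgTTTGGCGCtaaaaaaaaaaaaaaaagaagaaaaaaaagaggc
E2F3: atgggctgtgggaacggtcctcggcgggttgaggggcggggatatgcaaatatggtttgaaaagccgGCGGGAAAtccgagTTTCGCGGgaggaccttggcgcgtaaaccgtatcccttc
E2F6: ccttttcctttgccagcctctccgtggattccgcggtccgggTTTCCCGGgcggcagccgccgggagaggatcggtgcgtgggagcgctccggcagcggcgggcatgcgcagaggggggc
E2F7: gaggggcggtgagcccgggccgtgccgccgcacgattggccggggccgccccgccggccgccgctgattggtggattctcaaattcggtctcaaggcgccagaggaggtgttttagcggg

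Words of either set stood in 4 of the 7 member windows, against 6.19% of all 35116 promoter windows of the same length. The E2F1 window held 3 words within 25 bases (at -37 to -30 and -33 to -26, which overlap on opposite strands, and at -20 to -13, counted from the start). The E2F2 window held TTTCGCGG at -57 to -50 and TTTGGCGC at -42 to -35. The first E2F3 window held TTTCCCGC on the other strand at -53 to -46, printed as its reverse complement, and TTTCGCGG at -39 to -32. E2F6 had TTTCCCGG at -78 to -71 and again at -183 to -176. The E2F7 window held none of these words, but CCAAT stood in it at 4 places on the other strand, a word found in 3 of the 7 member windows and in 34.6% of all windows. The word TTTGAA of the cell cycle homology region stood in 1 member window, E2F3, and in 15.2% of all windows. A match describes the letters only, and no binding was measured.

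The deposited values are log2(FPKM + 1), where FPKM counts the fragments of a gene per kilobase and per mapped total of the library, so levels can be set beside each other between genes. Summed over the 4918 genes, FPKM lay between 121928 and 129692 per sample. Absolute depth is unknown, and steps in the lowest values gave relative depths between 87.2% and 150.1% of the control mean, both in the IFNγ group. CXCL10, an IFNγ-induced chemokine, was at 0 to 0.05 FPKM without IFNγ and at 78.7 to 122 FPKM with it, as the labels call for. Of 7 melanoma or melanocyte lineage genes, 5 had a mean of at least 1 FPKM in every group (CSPG4, EDNRB, CDH19, BCAN and ALX1), while the pigment enzyme gene DCT and ABCB5 were near 0. The summed level of the 7 genes was 75.0 to 75.6 FPKM in the controls, 62.0 to 66.2 in the SB-3CT group, 58.5 to 61.6 in the IFNγ group and 45.8 to 50.1 under both agents, and its part in the results was not tested. Of 12 markers of blood, epithelial, endothelial and fibroblast cells, 9 were measured and 0 reached a mean of 1 FPKM.

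All 8 E2F genes were expressed in every sample, and their levels spanned more than an order of magnitude. E2F4 was highest in all 12 samples, with a group mean between 79.1 and 88.3 FPKM. E2F1 followed in all 12 samples, at 21.1 to 26.4 FPKM by group. E2F6 (5.38 to 6.87 FPKM), E2F7 (4.55 to 7.54) and E2F3 (4.12 to 5.76) formed a middle tier whose order was not fixed. E2F6 was above E2F7 in 9 of 12 samples and E2F7 above E2F3 in 11 of 12. E2F5 (2.49 to 3.00 FPKM) stood below E2F3 and above E2F2 in all 12. E2F2 (1.25 to 2.09 FPKM) and E2F8 (1.06 to 2.22 FPKM) were lowest and did not differ beyond their spread, with E2F2 higher in 7 of 12 samples.

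Grouped by role, E2F4 and E2F5 made up 68.0% ± 0.62 (SD, n = 3) of the summed E2F FPKM in the controls, the activators 21.5% ± 0.7, E2F6 5.09% ± 0.3 and the atypical members 5.33% ± 0.14. With IFNγ the share of the atypical members was 6.86% ± 0.13 and that of E2F4 and E2F5 was 64.2% ± 0.64. With SB-3CT and IFNγ the atypical share was 4.66% ± 0.64 and the E2F4 and E2F5 share 67.5% ± 1.7. SB-3CT alone had an atypical share of 4.92% ± 0.43 and an activator share of 24.1% ± 0.64. The atypical share with IFNγ was above those of the other 3 groups.

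**Figure D1:**
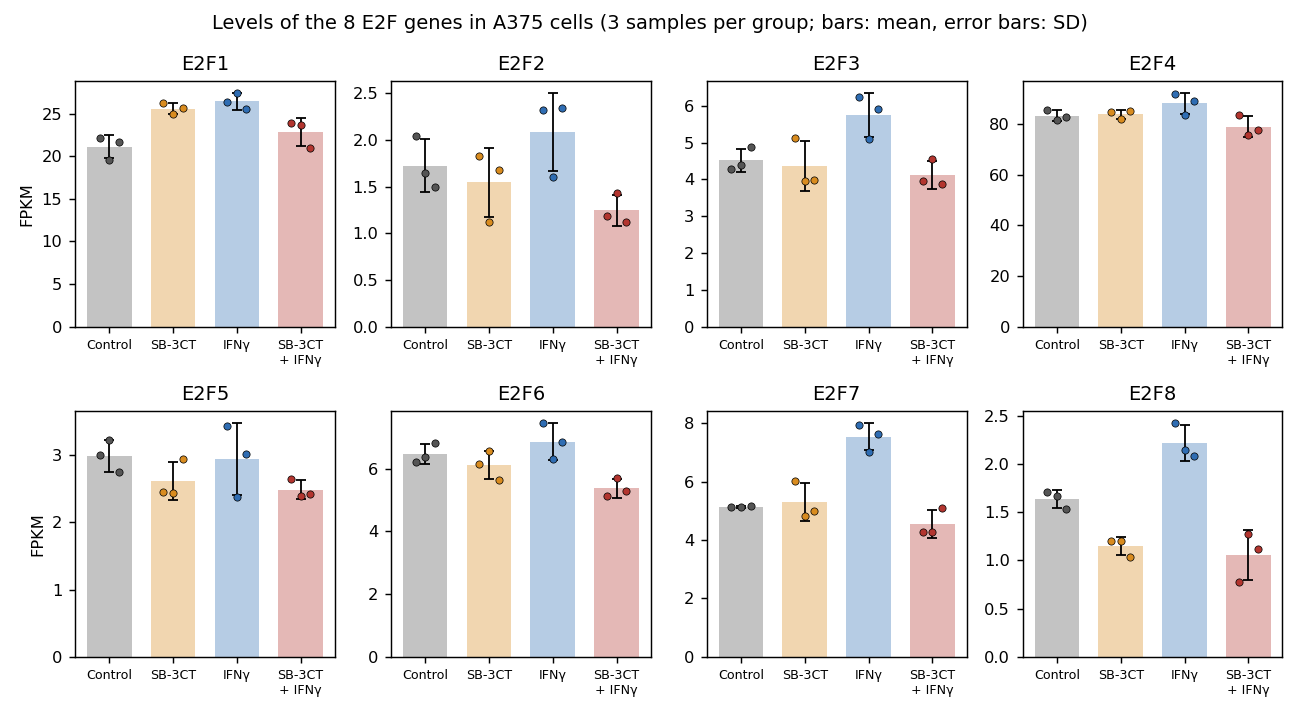
FPKM of the 8 E2F genes (vertical axes, each from 0) in the 4 groups of A375 cells; points are samples, bars are means of 3 samples and error bars are SD. E2F7 and E2F8 were highest in the 3 IFNγ samples (7.03 to 7.95 and 2.08 to 2.43 FPKM), while E2F4 stayed between 75.8 and 92.1 FPKM in all 12 samples.

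In hg19, E2F1 lies on chromosome 20 (32263283 to 32274191, minus strand), E2F2 on chromosome 1 (23832930 to 23857725, minus), E2F3 on chromosome 6 (20402110 to 20493945, plus) and E2F4 on chromosome 16 (67226058 to 67232821, plus). E2F5 lies on chromosome 8, E2F6 on chromosome 2 (11584501 to 11606303, minus), E2F7 on chromosome 12 (77415028 to 77459349, minus) and E2F8 on chromosome 11 (19245610 to 19263167, minus). Values of FPKM sum over a gene's exons. E2F3 overlaps the lncRNA E2F3-IT1 on the same strand, E2F5 overlaps RBIS on the opposite strand, and E2F8 overlaps CSRP3-AS1 on the opposite strand. The sources used here do not say whether strand was used in counting, so a contribution of these neighbours to E2F3, E2F5 and E2F8 cannot be told apart.

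The comparison of SB-3CT with IFNγ against IFNγ asked which genes the inhibitor altered in IFNγ-treated cells. As deposited, 6 of the 8 E2F genes fell: the activators E2F1, E2F2 and E2F3, the Polycomb-linked E2F6, and, with the largest log2 changes, E2F7 and E2F8, although E2F1 stood at 0.03 (log2) after scaling by the median ratio and E2F6 at 0.0040 after quantile normalization. In mean FPKM, E2F8 fell by 52.3%, E2F2 fell by 40.3%, E2F7 fell by 39.6% and E2F1 fell by 13.6%. E2F1, E2F2, E2F3 and E2F6 each lost their calls under median ratio scaling, under quantile normalization and with the length trend removed. E2F4 and E2F5 did not pass the test as deposited. Among all genes 31.5% were called lower and 6.41% higher, and the median change of genes with a mean of at least 1 FPKM was -0.20 (log2), a shift that all 8 changes include. All 8 members have such a mean. When the 3177 genes with that mean were fitted alone, 1510 were called lower and 348 higher, and 6 of the 8 members lower.

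Among the activators, E2F1, the member tied to both proliferation and apoptosis, was at 26.3, 27.5 and 25.5 FPKM in the IFNγ samples and at 23.9, 23.7 and 20.9 FPKM with SB-3CT and IFNγ. The groups did not overlap, and its change on the log2(FPKM + 1) scale was -0.20 (SE 0.0661, limma, adjusted p = 0.0445). E2F2 was at 2.32, 1.61 and 2.34 FPKM with IFNγ and at 1.18, 1.43 and 1.12 FPKM with SB-3CT and IFNγ. The second IFNγ sample lay nearest to the treated samples, and the change was -0.45 (SE 0.119, limma, adjusted p = 0.0211). E2F3, needed for entry into S phase, was at 6.26, 5.09 and 5.93 FPKM with IFNγ and at 3.95, 4.54 and 3.87 FPKM with SB-3CT and IFNγ. All 3 treated samples were lower, with a change of -0.40 (SE 0.0983, limma, adjusted p = 0.0164).

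E2F4, the most abundant repressor, was at 92.1, 83.8 and 89.1 FPKM with IFNγ and at 83.9, 75.8 and 77.7 FPKM with SB-3CT and IFNγ, so the groups overlapped by a single sample. Its change was -0.16 with a 95% interval of -0.30 to -0.02 (limma, adjusted p = 0.0776). E2F5 overlapped too, at 2.38 to 3.44 FPKM with IFNγ and 2.40 to 2.65 FPKM with both agents, a change of -0.17 with an interval of -0.44 to 0.10 (limma, adjusted p = 0.305). E2F6 was at 7.46, 6.30 and 6.84 FPKM with IFNγ and at 5.12, 5.71 and 5.29 FPKM with SB-3CT and IFNγ. It fell by 0.30 on the log2 scale (SE 0.0838, limma, adjusted p = 0.0258).

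The atypical members had the largest log2 changes. E2F7 was at 7.95, 7.03 and 7.64 FPKM in the IFNγ samples and at 4.27, 4.28 and 5.11 FPKM with SB-3CT and IFNγ. Its change was -0.62 (SE 0.0898, limma, adjusted p = 0.00288). E2F8 was at 2.43, 2.14 and 2.08 FPKM with IFNγ and at 0.777, 1.28 and 1.12 FPKM with SB-3CT and IFNγ, so no treated sample reached the lowest IFNγ sample. Its change was -0.65 (SE 0.109, limma, adjusted p = 0.00414), and since 1 is added to FPKM before the logarithm this understates the change of so low a gene. The same 6 members that fell had groups that did not overlap, where 39.6% of all genes had non-overlapping lower groups. An exact permutation test of 3 against 3 samples cannot go below p = 0.1, which each of the 6 reached.

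The calls for E2F7 and E2F8 withstood the removal of each of the 6 samples in turn, with adjusted p-values of 0.00552 to 0.0244 for E2F7 and 0.0137 to 0.0266 for E2F8 (limma). E2F1 lost its call in all 6 of these fits (0.058 to 0.118), and E2F2, E2F3 and E2F6 kept theirs in 2 of 6 each. The count of 6 fell to 2 without IFNγ replicate 1, without IFNγ replicate 3, without replicate 1 of SB-3CT with IFNγ, or without replicate 3 of that group. Of the 4918 genes, 1102, 1034, 1194 and 1060 were called lower in these fits, in the same order, against 1547 with all samples.

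**Figure D2:**
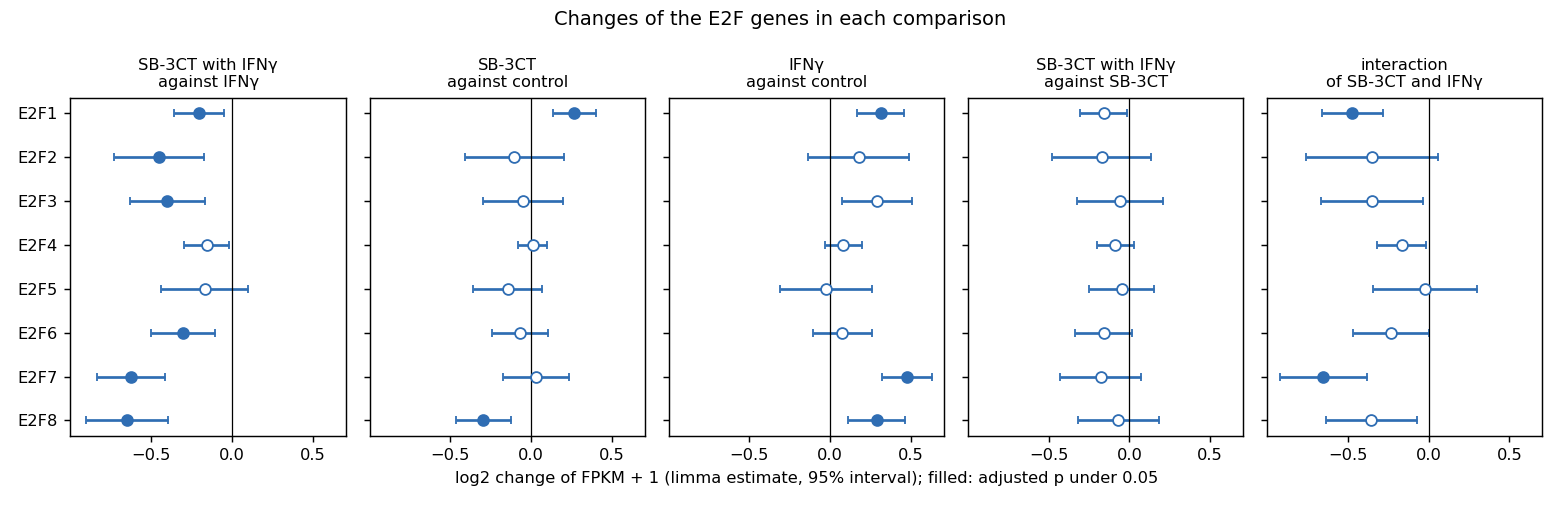
Changes of the 8 E2F genes (rows) in 5 comparisons (panels), as log2 change of FPKM + 1 on the horizontal axis with 95% intervals from limma; filled points have an adjusted p under 0.05. As deposited, 6 of 8 members are filled and left of 0 for SB-3CT with IFNγ against IFNγ (E2F1 at 0.03 and E2F6 at 0.0040 under other scalings), 0 of 8 are filled for SB-3CT with IFNγ against SB-3CT, and E2F1 and E2F7 are filled for the interaction. In the first panel, the calls of E2F1, E2F2, E2F3 and E2F6 were lost under the median ratio, quantile normalization and length trend removal.

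In the same comparison, longer transcripts were lower across all genes. In 5 groups of about equal size by length, the median change ran from 0.121 in the shortest (249 to 1659 bases) through -0.0978, -0.235 and -0.326 to -0.428 in the longest (5465 to 24709 bases). E2F7 (5725 bases) fell in the longest group, E2F2 (5196), E2F3 (5036) and E2F8 (3706) in the next, E2F6 (3230) and E2F1 (2690) in the middle, and E2F4 (2110) and E2F5 (1964) in the second shortest. Set against the median of their own length group, E2F8 stood at -0.325 and E2F7 at -0.195, whereas the other 6 members lay between -0.127 and 0.03.

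The call for E2F8 held under every scaling tried here. Its change was -0.52 (adjusted p = 0.0125, limma) after scaling by the median ratio, -0.43 (0.0297) after quantile normalization and -0.35 (0.0483) after removal of each sample's length trend. E2F7 stood at -0.42 (0.00914), -0.32 (0.0244) and -0.23 (0.0588) in the same order, so its call was lost with the length trend removed. E2F2 stood at -0.31 (0.0615), -0.21 (0.176) and -0.08 (0.503), and E2F3 at -0.20 (0.0908), -0.10 (0.334) and -0.03 (0.713). Neither was called under these, nor were E2F1 and E2F6. Of these scalings, E2F4 was called lower only after quantile normalization (-0.25, adjusted p = 0.0171) and stood at 0.08 under the median ratio. With the median ratio, 2 of 8 members were called lower where 16.5% of all genes were, and with the length trend removed 1 of 8 where 10.6% were. Over all genes the calls split into 315 higher and 1547 lower as deposited, and into 763 (15.5%) and 811 under the median ratio.

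**Figure D3:**
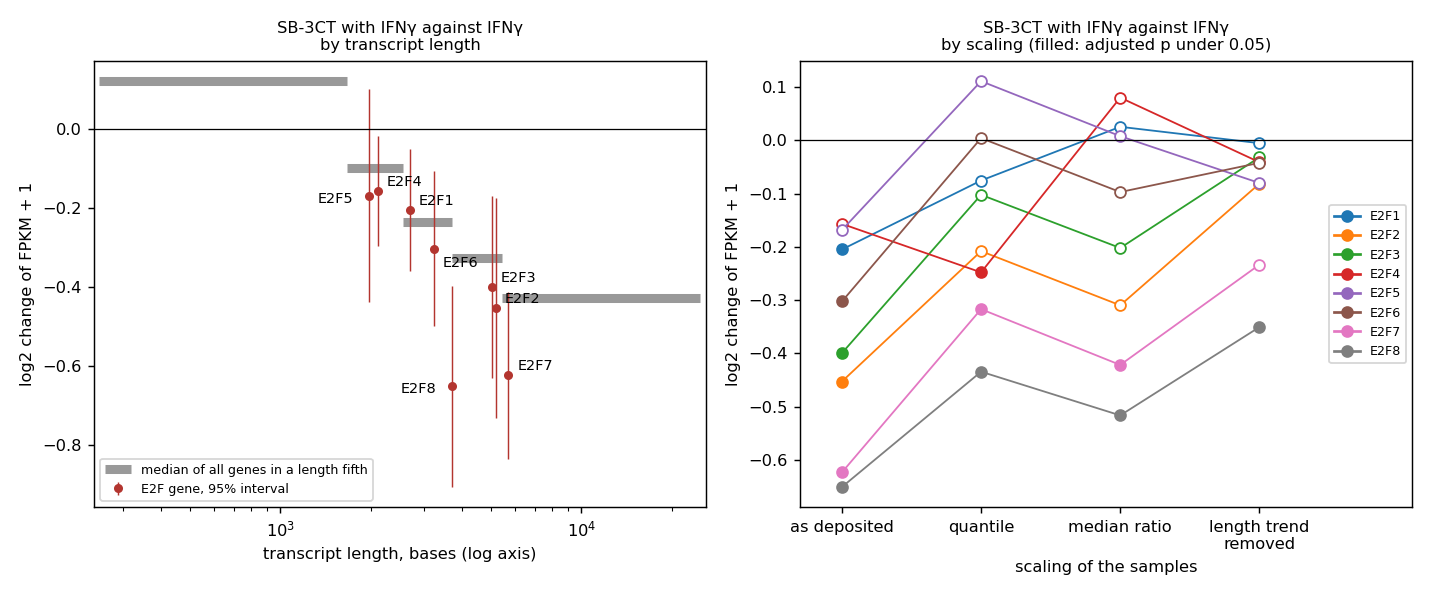
Left, log2 change of FPKM + 1 for SB-3CT with IFNγ against IFNγ by transcript length (log axis, bases), with 95% intervals for the 8 E2F genes and grey bars for the median of all genes with a mean of at least 1 FPKM in each of 5 length groups; right, the same changes under 4 scalings, filled where the adjusted p is under 0.05. E2F8 is filled in all 4 and E2F7 in 3, while E2F1, E2F4, E2F5 and E2F6 pass 0 in at least 1 scaling.

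Ratios between members of a single sample do not change with a scaling that multiplies each sample by 1 factor, such as the median ratio, but they do change with quantile normalization or removal of the length trend. E2F4 over E2F7, the main repressor against the atypical member, was 11.6, 11.9 and 11.7 in the IFNγ samples and 19.6, 17.7 and 15.2 with SB-3CT and IFNγ. The controls gave 16.8, 15.9 and 16.1 and SB-3CT alone gave 14.1, 17.0 and 17.1, so IFNγ alone was the group that stood apart. E2F6 over E2F8 compares genes of similar transcript length. It was 3.08, 2.94 and 3.29 in the IFNγ samples and 6.59, 4.47 and 4.74 under both agents, a log2 difference of 0.743 (exact permutation p = 0.1, two-sided, the smallest possible). E2F3 over E2F7, both long transcripts, overlapped between these groups (0.725 to 0.787 against 0.757 to 1.06, exact permutation p = 0.3).

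**Figure D4:**
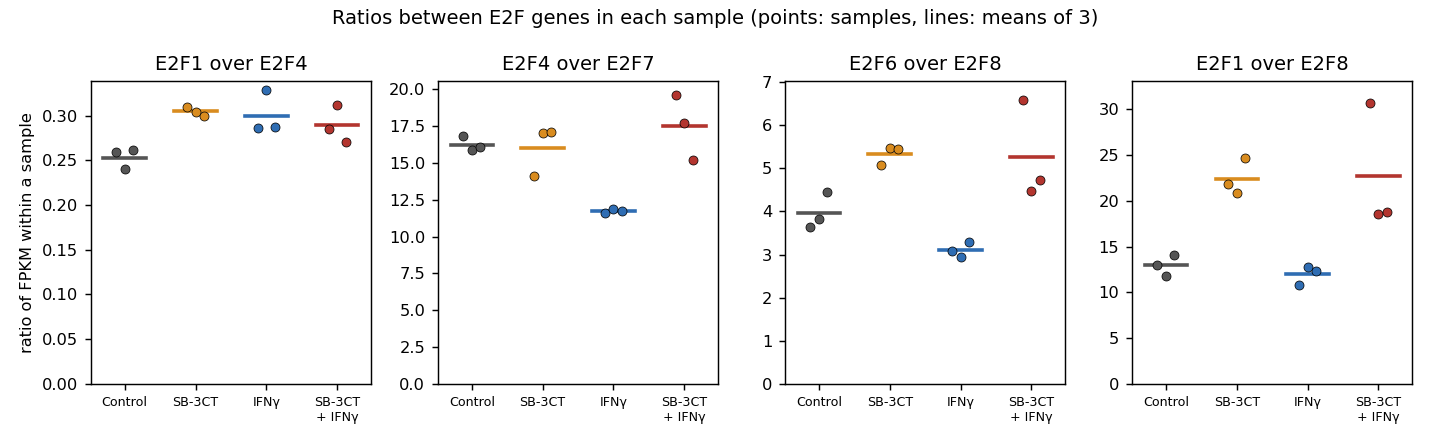
Ratios of FPKM between E2F genes within each sample (vertical axes from 0) in the 4 groups; points are samples and lines are means of 3. E2F4 over E2F7 is lowest with IFNγ (11.6 to 11.9), and E2F6 over E2F8 is higher in both groups given SB-3CT (4.47 to 6.59) than in the groups without it (2.94 to 4.45).

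Against the controls, SB-3CT alone moved 2 of the 8 members in opposite directions, E2F1 up and E2F8 down. Among all genes, 5.37% were called higher and 6.87% lower. E2F1 was at 22.2, 19.6 and 21.6 FPKM in the controls and at 26.2, 24.9 and 25.6 FPKM with SB-3CT, with no overlap and a gain of 21.1% in mean FPKM. The change was 0.27 (SE 0.0563, limma, adjusted p = 0.0292). E2F8 was at 1.71, 1.67 and 1.53 FPKM in the controls and at 1.21, 1.20 and 1.04 FPKM with SB-3CT, again with no overlap. It fell by 0.30 on the log2 scale (SE 0.0716, limma, adjusted p = 0.0401). Both calls changed with the samples used and with the processing. E2F1 lost its call when any of the 6 samples was left out (0.0536 to 0.107), and E2F8 kept its call only without SB-3CT replicate 1 (0.0375) and lost it without any other sample (up to 0.123). Calls over all genes changed too, from 264 higher and 338 lower to 302 and 610 without SB-3CT replicate 1. Without any other sample they were 41 to 58 higher and 30 to 38 lower. With the GC trend removed neither was called (adjusted p = 0.174 for E2F1 and 0.0756 for E2F8), and E2F8 also lost its call after quantile normalization (-0.21, adjusted p = 0.0686), with the length trend removed (-0.25, adjusted p = 0.0524), with a pseudocount of 0.1 and with the replicate block.

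The remaining 6 members overlapped between SB-3CT and control, while the groups of 33.9% of all genes did not overlap in either direction. E2F4 was at 82.0 to 85.4 FPKM with SB-3CT and 81.6 to 85.7 FPKM in the controls, a log2 change of 0.01 with a 95% interval of -0.08 to 0.10. E2F7 stood at 0.03 (-0.18 to 0.24), E2F3 at -0.05 (-0.30 to 0.20), E2F6 at -0.07 (-0.24 to 0.11), E2F2 at -0.10 (-0.41 to 0.20) and E2F5 at -0.15 (-0.36 to 0.07). E2F1 over E2F8, the highest activator against the lowest atypical member, was 11.8 to 14.1 in the controls and 20.8 to 24.7 with SB-3CT. With IFNγ alone this ratio was 10.8 to 12.8, and with both agents 18.5 to 30.7, so the 6 samples with SB-3CT were all above the 6 without it.

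Against the controls, IFNγ raised E2F1, E2F7 and E2F8, an activator and both atypical members, where 8.46% of all genes were called higher. E2F7 gained 46.8% in mean FPKM, E2F8 35.5% and E2F1 25.1%. The lower calls, 11% of all genes, held 0 of the 8 members. E2F7 was tightly grouped in the controls, at 5.11, 5.12 and 5.17 FPKM, and its 3 IFNγ samples began at 7.03 FPKM. The change was 0.48 (SE 0.0628, limma, adjusted p = 0.00421). E2F1 rose by 0.31 (SE 0.0591, limma, adjusted p = 0.0154), from at most 22.2 FPKM in the controls to at least 25.5 FPKM with IFNγ. E2F8 rose by 0.29 (SE 0.0716, limma, adjusted p = 0.0376), from 1.53 to 1.71 FPKM up to 2.08 to 2.43 FPKM.

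E2F3 was higher with IFNγ without overlap (4.29 to 4.87 against 5.09 to 6.26 FPKM), which makes 4 of 8 members where 15% of all genes did so, but its log2 change of 0.29 did not pass the test as deposited (limma, adjusted p = 0.0709). It passed under the median ratio (0.32, adjusted p = 0.0177), as did E2F4 (0.12, adjusted p = 0.0384), and so the count rose from 3 to 5, where 11.8% of all genes were called higher. E2F2 stood at 0.18 (95% interval -0.14 to 0.49), E2F6 at 0.07 (-0.11 to 0.26) and E2F5 at -0.03 (-0.31 to 0.26). Leaving out any of the 6 samples left E2F7 and E2F1 called (0.00456 to 0.0257 and 0.0353 to 0.0492), while E2F8 lost its call without any of them (0.0539 to 0.126). In these fits 271 to 488 of all genes were called higher, against 416 with all samples.

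Between SB-3CT with IFNγ and SB-3CT alone, 0 of 8 members were called by limma, where 40.5% of all genes were, 7.85% higher and 32.7% lower. At an unadjusted p under 0.05 there was 1, E2F1, and 39.9% of all genes were lower at that level. E2F1 was at 26.2, 24.9 and 25.6 FPKM with SB-3CT and 23.9, 23.7 and 20.9 FPKM with both agents, which did not overlap, as was so for the lower groups of 41.9% of all genes, and its log2 change was -0.16 (95% interval -0.30 to -0.02, limma, adjusted p = 0.0742). E2F7, which rose with IFNγ in cells without SB-3CT, stood at -0.18 here (-0.43 to 0.07), and E2F8 at -0.07 (-0.32 to 0.18). Under the median ratio E2F1 stood at 0.08, E2F7 at 0.03 and E2F8 at 0.06, none past the threshold, and the split over all genes changed from 386 higher and 1608 lower to 657 and 547. Without replicate 1 of SB-3CT with IFNγ the count became 1, E2F4 (adjusted p = 0.0468), where 1323 of all genes were called lower and 340 higher.

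The interaction over all 12 samples tested whether SB-3CT altered a gene differently in the presence of IFNγ. It passed for 2 of 8 members, E2F1 and E2F7, both lower than the sum of the separate changes, where 22.3% of all genes passed, 17.6% lower and 4.74% higher. For E2F1 the interaction was -0.47 (SE 0.0864, limma, adjusted p = 0.00616), made of a log2 change of 0.27 without IFNγ and -0.20 with it. For E2F7 it was -0.65 (SE 0.123, limma, adjusted p = 0.00653), made of 0.03 without IFNγ and -0.62 with it. E2F8 did not pass (-0.36, adjusted p = 0.0683), nor did E2F3 (-0.35, 0.106), E2F2 (-0.35, 0.202), E2F4 (-0.17, 0.106), E2F6 (-0.23, 0.138) or E2F5 (-0.02, 0.941). Under the median ratio E2F7 was still called (-0.48, adjusted p = 0.0158) and E2F1 was not (-0.27, adjusted p = 0.0653). Both were called in each of the 12 fits that left out a sample, and without IFNγ replicate 2 the count became 4, with E2F3 (adjusted p = 0.0482) and E2F4 (0.0379) added. Without that sample 1178 of all genes passed lower and 272 higher, against 866 and 233 with all samples.

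A list of 50 genes commonly placed downstream of E2F factors, for replication, checkpoints and mitosis, was written by hand from the symbols the table can hold. Between SB-3CT with IFNγ and IFNγ, 35 of the 50 fell (31.5% of all genes did), 3 rose (6.41%) and 12 were not called, with a median change of -0.432 against -0.0882 over all genes and -0.20 over those with a mean of at least 1 FPKM. Of the 3177 genes with that mean, fitted alone, 1510 were called lower and 348 higher. The largest falls were ATAD2, a chromatin coactivator (10.7 to 4.82 FPKM, log2 change -1.0), the S phase cyclin CCNE2 (9.47 to 4.61 FPKM, -0.90) and the replication checkpoint adaptor CLSPN (6.62 to 3.07 FPKM, -0.90). The 3 that rose were CKS2 (554 to 857 FPKM, 0.64) and CKS1B (303 to 433 FPKM, 0.52), small subunits that bind cyclin-dependent kinases, and the mitotic cyclin CCNB1 (112 to 130.1 FPKM, 0.21). Of these, CKS2 lost its call with the length trend removed (0.31, limma, adjusted p = 0.0518). The list's median was below that of all genes under each scaling tried: 28 of 50 were called lower with the median ratio (16.5% of all genes), 25 with quantile normalization (14.5%) and 21 with the length trend removed (10.6%).

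SB-3CT alone left 40 of the 50 target genes uncalled, with 4 higher and 6 lower (5.37% and 6.87% of all genes). CDT1, a replication licensing factor, had the largest rise (16.5 to 24.5 FPKM, 0.54, limma, adjusted p = 0.00596), and CCNE2 the largest fall (-0.42, adjusted p = 0.0238). With IFNγ alone 11 rose (8.46% of all genes), led again by CDT1 (0.50, adjusted p = 0.0048), and 1 fell (11%), CCNB1 (-0.19, adjusted p = 0.0244), with a median of 0.168 against -0.0182 over all genes. The CCNB1 call was lost under the median ratio (-0.14, limma, adjusted p = 0.172). Under the median ratio 23 of the 50 were called higher with IFNγ (11.8% of all genes). Between SB-3CT with IFNγ and SB-3CT alone 17 were lower and 3 higher as deposited (median -0.182, with 32.7% of all genes lower and 7.85% higher), but 0 lower and 4 higher under the median ratio (median 0.0187, with 11.1% of all genes lower and 13.4% higher), with BUB1, a spindle checkpoint kinase, at -0.47 and -0.26 and CKS2 at 0.66 and 0.91. The interaction passed for 25 of the 50, 23 lower and 2 higher (17.6% and 4.74% of all genes), and under the median ratio 14 were lower and 4 higher, against 5.59% and 7.77% of all genes.

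**Figure D5:**
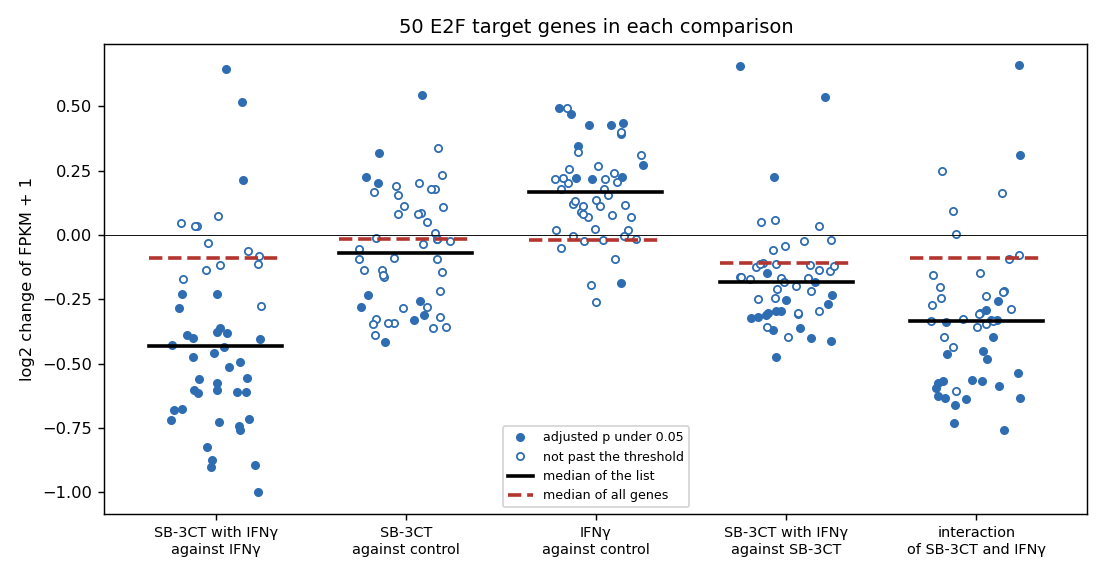
Log2 change of FPKM + 1 (vertical axis) of the 50 E2F target genes in 5 comparisons (horizontal axis); each point is a gene, filled where the adjusted p is under 0.05, with the list's median as a solid line and the median of all genes as a dashed line. The list's median is -0.432 for SB-3CT with IFNγ against IFNγ and 0.168 for IFNγ against control, and for SB-3CT with IFNγ against SB-3CT it is -0.182 here and 0.0187 under median ratio scaling.

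Cell cycle regulators were followed in a list of 21 genes: cyclins, cyclin-dependent kinases, their inhibitors and the phosphatase CDC25A. Of these, 19 were measured and 6 are also in the target list. With SB-3CT and IFNγ against IFNγ, 8 of 19 fell (31.5% of all genes) and 1 rose (6.41%), with a median of -0.22 against -0.0882 over all genes and -0.20 over those with a mean of at least 1 FPKM. Of the 3177 genes with that mean, fitted alone, 1510 were called lower and 348 higher. The 3 largest falls were CCNE2 and the inhibitors CDKN1B (18.9 to 11.7 FPKM, -0.64) and CDKN2C (38.1 to 24.6 FPKM, -0.61), and the rise was CDKN1A, the p53-induced inhibitor (274 to 340.1 FPKM, 0.31). Under the median ratio the list split into 5 higher and 5 lower (15.5% and 16.5% of all genes). With SB-3CT alone 3 rose and 5 fell (5.37% and 6.87% of all genes), led by CDK2 (52.9 to 75.8 FPKM, 0.51), the kinase of cyclin E, and CDK6 (12.9 to 8.95 FPKM, -0.50), a partner of cyclin D. CDK6 lost this call with the length trend removed (-0.36, limma, adjusted p = 0.0529). With IFNγ alone 2 rose (8.46% of all genes), led by cyclin D1, CCND1 (0.33), and 2 fell (11%), led by CDKN1A (395 to 274 FPKM, -0.52). Between SB-3CT with IFNγ and SB-3CT alone 9 fell (32.7% of all genes), led by CDK6 (-0.67), and 1 rose (7.85%), CDKN2A (4.11 to 6.41 FPKM, 0.54). Under the median ratio 3 were called lower and 2 higher (11.1% and 13.4% of all genes).

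Partners in repressor complexes, among them complexes that E2F6 and the pocket proteins join, were followed in a list of 17 genes, 16 of them measured. With SB-3CT and IFNγ against IFNγ 8 of 16 fell (31.5% of all genes) and 0 rose (6.41%). Of the 3177 genes with a mean of at least 1 FPKM, fitted alone, 1510 were called lower. The list's median was -0.314, against -0.0882 over all genes and -0.20 over those with that mean. With the length trend removed it was -0.02 against 0.0339 over all genes, and 2 were called lower (10.6% of all genes). Under the median ratio 6 were called lower (16.5%), and after quantile normalization 5 (14.5%). ARID4B, a subunit of the SIN3 corepressor (4.38 to 2.06 FPKM, -0.81), CBX5, a heterochromatin protein (4.69 to 2.67 FPKM, -0.63), and EZH2, the Polycomb methyltransferase that is also in the target list (16.2 to 10.3 FPKM, -0.61), had the largest falls. CBX5 lost this call with the length trend removed (-0.17, limma, adjusted p = 0.137). With SB-3CT alone CTBP1, a corepressor, rose (0.22) and CBX3, another heterochromatin protein, fell (181 to 129 FPKM, -0.48). With IFNγ alone BCOR, a subunit of a Polycomb complex, rose (5.6 to 8.65 FPKM, 0.55) and CBX3 fell (-0.27). Between SB-3CT with IFNγ and SB-3CT 7 fell (32.7% of all genes), led by CBX5 (-0.56), and 0 rose (7.85%). Under each of the median ratio, quantile normalization and length trend removal 1 was called lower (11.1%, 17% and 16.6% of all genes).

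Among 10 apoptosis genes placed downstream of E2F1, 1 fell (31.5% of all genes) and 1 rose (6.41%) with SB-3CT and IFNγ against IFNγ. The list's median was -0.0956 against -0.0882 over all genes, and 0.133 against -0.00614 under the median ratio. The median ratio gave 4 higher and 1 lower (15.5% and 16.5% of all genes), and removal of the length trend 3 higher and 0 lower (17.5% and 10.6%). APAF1, the apoptosome scaffold, fell (2.83 to 1.51 FPKM, -0.61), a call lost with the length trend removed (-0.19, limma, adjusted p = 0.0518), and BID, a BH3-only protein, rose (20.9 to 27.0 FPKM, 0.36). IFNγ alone raised 2 (8.46% of all genes), led by BBC3, another BH3-only protein (17.6 to 34.2 FPKM, 0.96), and lowered 1 (11%), CASP9, the apoptosome caspase (-0.48). BBC3 lost its call with the length trend removed (0.965, limma, adjusted p = 0.0516). With SB-3CT alone 2 rose (5.37% of all genes), led by AIFM2 (0.33), and 0 fell (6.87%). Between SB-3CT with IFNγ and SB-3CT, 1 rose (7.85% of all genes), BAK1, a pore-forming BCL2 family protein (30.6 to 40.8 FPKM, 0.40). In the same comparison 3 fell (32.7%), led by CASP9 (-0.41), which stood at -0.21 with no call under the median ratio. There 4 were called higher and 0 lower (13.4% and 11.1% of all genes).

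Across the 12 samples, E2F3 and E2F7 followed each other most closely among the members (Pearson r of log2 values 0.873, n = 12, and 0.814 after median ratio scaling), then E2F7 and E2F8 (0.823 and 0.748) and E2F6 and E2F8 (0.821 and 0.727). E2F1 followed E2F8 little (0.209) and E2F5 not at all (-0.16). All such values share the samples, their scaling and the treatments, and are descriptions. Among 3177 genes with a mean of at least 1 FPKM, the patterns most like E2F1 were AJUBA (0.92), ELL (0.903) and CDT1 (0.887), and those most like E2F2 were CENPBD1 (0.97), ELOVL4 (0.922) and CLSPN (0.922). For E2F3 they were DMTF1 (0.949), CASP8AP2 (0.943) and C6orf62 (0.937), and for E2F4 FAM129B (0.915), DENND4B (0.914) and CABLES2 (0.913), of which CABLES2 dropped to 0.0776 and DENND4B to 0.565 under the median ratio. For E2F5, EFNA5 (0.801), CWF19L2 (0.787) and DUS4L (0.779) came closest, but these dropped to 0.342, 0.589 and 0.582 under the median ratio. For E2F6 they were BUB3 (0.948), EBF3 (0.943) and DCTN4 (0.933), of which DCTN4 dropped to 0.582. E2F7 was most like ANKFY1 (0.957), AGPAT9 (0.948) and DCP1A (0.942), and E2F8 most like CSGALNACT1 (0.959), BLZF1 (0.955) and EFTUD1 (0.951). By Spearman correlation CDT1 stood at rank 79 for E2F1 (0.72) and CLSPN at rank 64 for E2F2 (0.853). By Pearson correlation under the median ratio, DMTF1 stood at rank 33 for E2F3 (0.861) and AGPAT9 at rank 77 for E2F7 (0.843). In RNA from whole cultures, fewer cells in a phase of the cycle and less RNA per cell cannot be told apart.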

How the data were processed

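RNA of 12 A375 samples (3 per group) was sequenced by the authors with paired-end reads, aligned to hg19 with HISAT2 2.0.5 and quantified with StringTie 1.3.3, per the labels and the methods. The deposited values are log2(FPKM + 1) by their range and sums, although named FPKM; they were used as deposited. Genes after FAM46B in the alphabet were not analysed here. Read counts were not used and the read depth is not known, which leaves counting error out.

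Pairs of groups (3 + 3 samples) were compared with limma 3.58.1 (R 4.3.3, eBayes with a variance trend), and the interaction was fitted over all 12 samples. P-values were two-sided and adjusted over 4918 genes by Benjamini-Hochberg, with a threshold of 0.05. The labels do not say whether samples were separate cultures, so p-values measure only the spread between these samples. The members and lists were chosen with earlier results of these data known, and list counts are descriptions. Named genes were all members, and in each list the 3 largest called rises and falls for SB-3CT with IFNγ against IFNγ and 1 of each in the other pairs. A gene of the lists is not reported here and was left out of their counts. By the same rule, likeness was taken as the 3 highest Pearson correlations.

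Transcript lengths and positions came from GENCODE release 44 on GRCh37 (canonical transcripts). Of the 4918 symbols 4458 matched directly and 415 through older symbols, and 98.5% had a length. Alternatives were genes of mean FPKM 1 or more only, a pseudocount of 0.1, median ratio scaling, quantile normalization, removal of each sample's length or GC trend (loess), all 4 groups in a single fit, a replicate block, no variance trend, each sample left out, and the thresholds in the methods (absolute log2 fold change over 0.5 and p under 0.5). The study's figure legend for its A375 genes states stricter limits for both, which were not applied here. The fits were tested on simulated data.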

Additional observations from a re-analysis of the deposited data

Results flagged for a closer look

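For the 2 E2F genes and 5 list genes named here, the change with SB-3CT differed between cells with and without IFNγ. The interaction test used 12 samples (limma, adjusted over 4918 genes, of which 22.3% passed, 17.6% lower and 4.74% higher). The 5 are only the largest called fall or rise of each list. In full, 23 of 50 target genes passed lower and 2 higher. In the other lists 7 of 19 cyclin and kinase genes, 5 of 16 repressor partners and 2 of 10 apoptosis genes passed lower, and 0 higher. E2F1 had an interaction of -0.47 on the log2 scale (adjusted p = 0.00616), with a change of 0.27 without IFNγ and -0.20 with it. E2F7 had -0.65 (adjusted p = 0.00653), from 0.03 to -0.62. Among the target genes, CLSPN had -0.76 (adjusted p = 0.0143), from -0.14 to -0.90, and CKS2 had 0.66 (adjusted p = 0.0136), from -0.02 to 0.64. CDK2 had -0.59 (adjusted p = 0.0023), from 0.51 to -0.08. BCOR had -0.70 (adjusted p = 0.00324), from 0.16 to -0.54, and APAF1 had -0.35 (adjusted p = 0.0357), from -0.26 to -0.61. The APAF1 interaction lost its call under the median ratio (-0.22, adjusted p = 0.174) and with the length trend removed (-0.03, adjusted p = 0.83), and that of E2F1 lost its call under the median ratio (-0.27, adjusted p = 0.0653).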

How the results depend on the processing

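The count of 6 E2F members called lower for SB-3CT with IFNγ against IFNγ became 2 with median ratio scaling, 3 after quantile normalization, 1 without the length trend and 3 by the thresholds in the methods, and ranged from 2 to 7 when a sample was left out. With a sample left out, 1034 to 1646 of the 4918 genes were called lower in that comparison, against 1547. E2F1 turned to 0.02528 under the median ratio and E2F6 to 0.003971 under quantile normalization, neither called. The single member higher with SB-3CT alone became 0 with the GC trend removed, by the thresholds in the methods and without any sample. The single lower member became 0 with a pseudocount of 0.1, quantile normalization, the length or the GC trend removed, or the replicate block, and 0 to 1 with a sample left out. Leaving out a sample gave 41 to 302 higher and 30 to 610 lower calls over all genes there, against 264 and 338. The 3 members higher with IFNγ became 5 with the median ratio or quantile normalization, 1 with the replicate block and 1 by the thresholds in the methods. The count of 0 lower between SB-3CT with IFNγ and SB-3CT ranged from 0 to 1 with a sample left out, and the interaction's 2 became 1 with the median ratio and 2 to 4 with a sample left out. Fits without a sample gave 1204 to 1443 lower calls over all genes for the former and 517 to 1178 for the interaction. The cause of these shifts was not tested, and each fit that left out a sample also had a smaller group. The replicate numbers did not pair the samples (correlations of deviations from -0.395 to 0.172); with the replicate block 4 members were lower for SB-3CT with IFNγ against IFNγ. Of 205 alternatives to the 13 called changes, 145 kept direction and call, 58 lost the call and 2 changed sign. A further 50 sign changes were in changes that passed in neither fit.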
